A study of Mus musculus with 2 samples.

Results

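The genes of MHC class I antigen presentation and the immunoproteasome were followed in cultured mouse myeloid cells with and without mrWNT2. The group was a fixed set of 10 genes picked by symbol: the heavy chains H2-K1 and H2-D1, the light chain B2m, the peptide transporter genes Tap1 and Tap2, the loading factor gene Tapbp, the immunoproteasome subunit genes Psmb8, Psmb9 and Psmb10, and the transactivator gene Nlrc5. All 10 were found among the 54751 gene rows of the count table. Myeloid-derived suppressor cells (MDSCs) are immature myeloid cells that can dampen T cell responses, and those studied here were grown from WT mouse bone marrow in RPMI medium with heat-treated serum. The mrWNT2 library came from cells given mrWNT2 on day 0 and day 3, and the control library from cells given vehicle on the same days. Both were collected on day 6, and the age, sex and number of the mice are not stated in the sources used. Each group had 1 library, so no difference below has a replicate check, no test was possible, and every interval covers counting error only.

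MHC class I molecules carry short peptides from inside the cell to its surface, where CD8 T cells inspect them. The proteasome cuts proteins into peptides, the TAP transporter moves the peptides into the endoplasmic reticulum, tapasin helps load them, and a heavy chain bound to beta-2 microglobulin carries them out. Interferons and NLRC5 are known to raise the transcription of these genes, and interferon-gamma is known to exchange the constitutive catalytic subunits of the proteasome for the immunoproteasome subunits.

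The promoters of the class I heavy chain genes are shown because H2-K1 and H2-D1 lay on opposite sides of a ratio of 1 in these libraries. RefSeq sequences (GRCm38.p6) running from 250 bases before to 50 bases after a start site matched 8 of the 10 genes. Capitals mark 3 of the searched motifs on either strand. They are GGGNNTCCC, a loose form of the NF-kB site found in enhancer A of class I promoters; TGACG, which is one arm of a CREB/ATF site; and CCAAT, the NF-Y box, which reads ATTGG on the other strand. The H2-K1 stretch is chr17:34000330-34000483, minus strand, from the first of its 2 promoter entries, and the H2-D1 stretch is chr17:35262898-35263050, plus strand.
H2-K1: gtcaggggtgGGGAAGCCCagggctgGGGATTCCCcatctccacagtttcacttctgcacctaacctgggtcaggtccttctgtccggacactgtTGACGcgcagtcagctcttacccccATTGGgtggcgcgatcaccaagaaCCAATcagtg
H2-D1: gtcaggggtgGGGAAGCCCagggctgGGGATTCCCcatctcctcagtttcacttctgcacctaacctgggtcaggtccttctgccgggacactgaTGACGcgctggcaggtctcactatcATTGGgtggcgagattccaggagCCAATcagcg

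These stretches were identical at 137 of 154 aligned positions (89.0%), and 1 of the 154 was a gap. Both genes held both matches to the loose NF-kB motif with the same letters. The second match with its flanking bases, GGGGATTCCCC, occurred in 10 of 32851 promoters (0.0304%), those of H2-K1, H2-D1 and H2-Q6 among them, whereas the first, GGGAAGCCC, matched the loose form alone. This longer form was taken from the H2-K1 and H2-D1 sequences, so its presence there was given in advance. Both promoter entries of H2-K1 are among the 10. The 85 bases from the start of the first NF-kB match to TGACG, and the 25 from there to ATTGG, were the same length in both genes. The distance between the CCAAT boxes was 24 bases in H2-K1 and 23 in H2-D1. The loose NF-kB motif was present in 5.66% of 32851 promoters, TGACG in 20.8% and CCAAT in 37.4%. The interferon-stimulated response element core GAAANNGAA (8.56% of promoters, or 3.44% where a further A follows) was also searched, on both strands. It had no match in the H2-K1 and H2-D1 stretches. However, both hold agtttcacttct after the second NF-kB match. On the other strand this has GAA before GAAA, an order that the searched core cannot match. The search therefore cannot decide whether these genes lack an interferon-stimulated element. No matches overlapped each other in the stretches printed here. A match describes letters only and says nothing of binding.

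The stretch of B2m (chr2:122147538-122147643, plus strand) carried the interferon-stimulated core, TGACG and ATTGG. The RefSeq starts of Tap1 and Psmb9 lie 226 bases apart on opposite strands. The bases between them (chr17:34187331-34187555, read on the Tap1 strand) carried CCAAT and TGACG. These are shown because B2m was among the genes with the highest ratios, and because Tap1 and Psmb9 share the bases between their RefSeq starts. The promoters of Tapbp, Psmb8 and Psmb10 are not printed. Of the motifs named above, Tapbp matched only CCAAT. Psmb10 matched none of them, and neither did Psmb8, which had the highest ratio of the group.
B2m: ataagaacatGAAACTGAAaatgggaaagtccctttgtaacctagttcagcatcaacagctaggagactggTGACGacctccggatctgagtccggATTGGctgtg
Tap1 and Psmb9: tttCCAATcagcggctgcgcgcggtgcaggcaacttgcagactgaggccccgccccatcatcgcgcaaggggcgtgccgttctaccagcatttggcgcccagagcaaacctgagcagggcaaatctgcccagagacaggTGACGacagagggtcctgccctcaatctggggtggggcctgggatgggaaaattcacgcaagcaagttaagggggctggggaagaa

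The mrWNT2 library held 12621110 counts and the control library 13474453. Levels are given in CPM, which relates each count to its TMM-adjusted library size, and the 12856 genes that averaged 1 CPM or more were compared. All 8 myeloid markers listed were expressed, with Itgam, Ly6c2, S100a8 and S100a9 at mean levels between 486 and 23670 CPM. The granulocytic marker Ly6g was lower in the mrWNT2 library, at 86.3 CPM against 173 CPM in control (ratio 0.499, 0.464 to 0.536), and Csf1r, a marker of the monocyte lineage, was higher, at 346 CPM against 146 CPM (2.37, 2.25 to 2.50). The rest of these markers lay closer to a ratio of 1. Ratios were 0.964 for Itgam, 0.947 for Ly6c2, 0.868 for S100a9, 0.837 for Ptprc, 0.799 for S100a8 and 1.21 for Cybb. Ncr1, Pax5 and Siglech, which mark NK, B and plasmacytoid dendritic cells, had 0 counts in both libraries. Cd3e, a T cell marker, had 0 counts in mrWNT2 and 1 in control, and Cd8a had 0 and 3. The sum over the 10 T and NK markers was 23.3 CPM in mrWNT2 and 24.8 CPM in control, most of it Nkg7 (20.7 and 20.2 CPM). That over the 6 B and plasma cell markers was 4.40 and 4.64 CPM. The 8 dendritic cell markers summed to 35.2 and 38.5 CPM, most of it Itgax (25.1 and 28.8 CPM), and the 8 stromal and endothelial markers to 59.5 and 66.3 CPM. Most of the last sum was Pecam1 (47.9 CPM in mrWNT2 and 41.6 CPM in control), and 3 of the 6 measured markers of that list were lower by 1.5-fold or more, Col1a1 (0.384), Col1a2 (0.239) and Sparc (0.326). The sum over the 10 macrophage markers was 1505 CPM in mrWNT2 and 2713 CPM in control, with 8 of the 10 lower by 1.5-fold or more and Adgre1 1.80-fold higher. Of all genes compared, 7.02% were lower by 1.5-fold or more. The part of these marker differences in the results below was not tested, and in bulk RNA fewer cells of a type and less RNA per cell cannot be told apart.

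The genes that encode the class I complex itself did not move as a unit. H2-K1 and B2m were higher in the mrWNT2 library and H2-D1 was lower, while the transporter, proteasome and transactivator genes ranged from a ratio of 0.984 to 1.47. In all, 4 of the 10 genes were at least 1.2-fold higher, against 21.0% of all genes compared, and 1 was at least 1.2-fold lower, against 18.4%. At 1.5-fold, none of the 10 was higher or lower, against 7.62% and 7.02% of all genes. The counting interval lay above a ratio of 1 for 5 of the 10 (21.0% of all genes) and below it for 1 (18.8%). All 10 averaged 10 CPM or more. Among the 8543 genes at that level, the shares higher and lower were 15.6% and 12.7% at 1.2-fold, 4.12% and 2.95% at 1.5-fold, and 25.0% and 22.7% by interval. The median log2 ratio was 0.11 over the 10 genes and 0.02 over all genes compared.

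**Figure D1:**
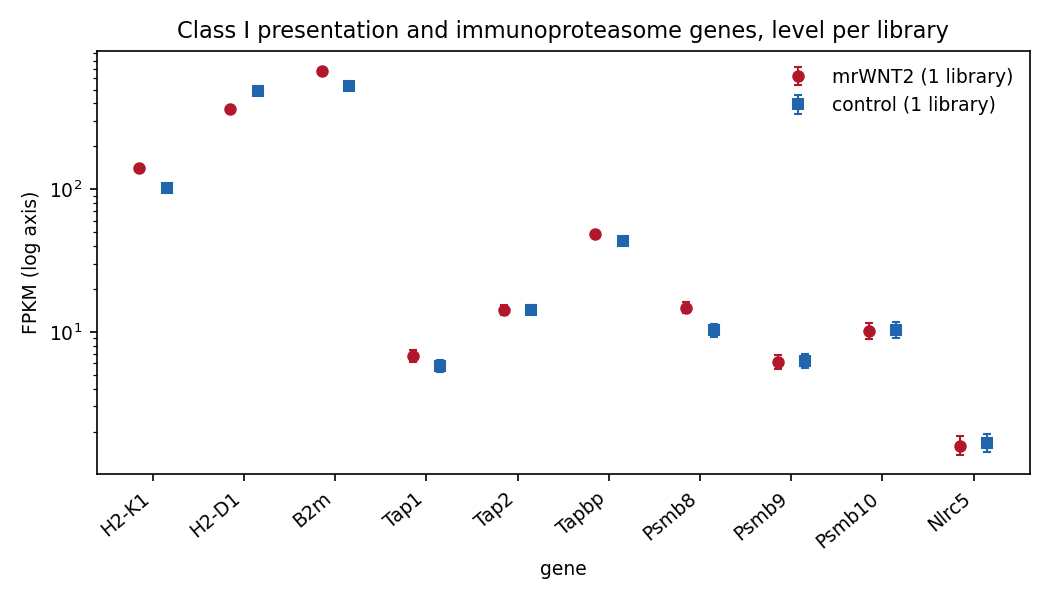
FPKM of each gene on a log axis in the mrWNT2 library (circles) and the control library (squares), 1 library each, with 95% Poisson intervals of the counts carried to FPKM. B2m and H2-D1 stood highest in both libraries, and Nlrc5 stood lowest at 1.59 FPKM in mrWNT2 and 1.66 FPKM in control.

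H2-K1 (ENSMUSG00000061232, chromosome 17, 33996017 to 34000333, minus strand, GRCm38) encodes the classical heavy chain K. It had 4739 counts in the mrWNT2 library and 3532 in the control library, or 373 and 264 CPM. That is a 1.41-fold ratio (95% binomial interval 1.35 to 1.47), higher than the ratio of 90.4% of the genes compared.

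H2-D1 (ENSMUSG00000073411, chromosome 17, 35262730 to 35267499, plus strand) encodes the classical heavy chain D and was the gene of the group with the most counts in both libraries. It had 12104 counts in mrWNT2 and 16711 in control, or 952 and 1250 CPM. Its ratio was 0.762 (0.744 to 0.780), and 12.1% of the genes compared had a lower ratio. H2-D1 was the only gene of the 10 with an interval wholly below 1, and its difference of -298 CPM was the largest of the group in size.

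B2m (ENSMUSG00000060802, chromosome 2, 122147686 to 122153083, plus strand) encodes beta-2 microglobulin, the light chain that class I heavy chains need to reach the surface. It had 7426 counts in mrWNT2 and 6063 in control, or 584 and 453 CPM, a 1.29-fold ratio (1.24 to 1.33). The light chain and H2-K1 were thus higher in mrWNT2 while H2-D1 was lower.

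Ratios between genes of the same library do not depend on how the libraries are scaled. On the FPKM scale, which is per gene length, H2-K1 stood at 0.387 of H2-D1 in mrWNT2 and at 0.209 of it in control, so the ratio of K to D transcripts was 1.85-fold higher (1.76 to 1.95) in mrWNT2. H2-D1 stood at 0.544 of B2m in mrWNT2 and at 0.919 of it in control, a ratio of 0.591 (0.567 to 0.616). H2-K1 over B2m differed little, at 0.210 in mrWNT2 and 0.192 in control, a ratio of 1.10 (1.04 to 1.16). The gene length behind FPKM was 2608 bases for H2-K1 and 2579 for H2-D1. Their longest coding transcripts have 1619 and 2102 bases. For B2m both lengths were 860 bases. FPKM levels of different genes set against each other, here and below, depend on these lengths. Pair ratios set between the libraries do not.

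Because H2-D1 was the more abundant heavy chain, the sum of both followed it. H2-K1 and H2-D1 together had 1324 CPM in mrWNT2 and 1514 CPM in control, a ratio of 0.875 (0.857 to 0.893). In FPKM, both heavy chains summed to 0.754 of B2m in mrWNT2 and to 1.11 of B2m in control. With the other listed H2-Q, H2-T and H2-M genes added (16 genes), the sum was 1513 CPM in mrWNT2 and 1699 CPM in control, a ratio of 0.891 (0.874 to 0.908).

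Class I genes are close relatives, and reads may be credited to the wrong member of the family. Of the 100-base windows of the longest coding transcript of H2-K1, none of 1520 occurred exactly in a transcript of another gene, and of those of H2-D1, 93 of 2003 (4.64%) did, in H2-Q, H2-T and related genes. With 50-base windows the shares were 8.79% for H2-K1 and 14.3% for H2-D1. These matches fell in 24 other genes for H2-K1 and in 103 for H2-D1, some of the latter outside the class I family, such as Adsl and Atad2. The read length and the handling of reads with several matches are not stated in the sources used. The mouse strain is not stated either, and a class I haplotype other than that of the reference would also bear on these counts; this was not tested.

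**Figure D2:**
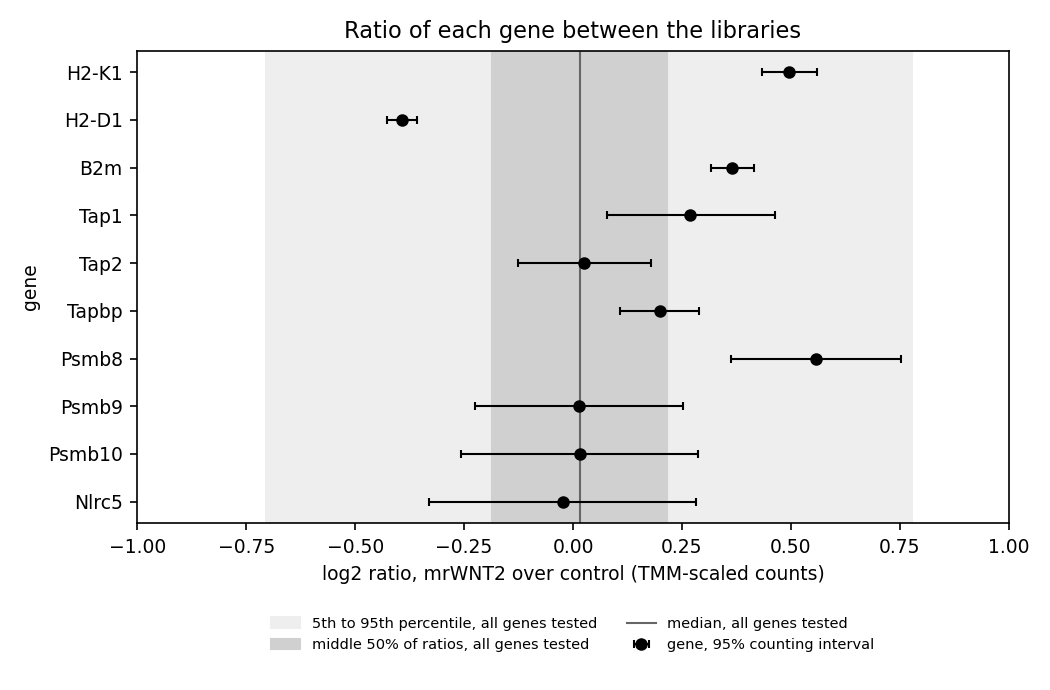
Log2 ratio of mrWNT2 over control for each gene, with 95% counting intervals from 1 library each; shaded bands span the middle 50% and the 5th to 95th percentiles of all 12856 genes. H2-K1 (0.50), B2m (0.37), Tap1 (0.27) and Psmb8 (0.56) lie right of the inner band and H2-D1 (-0.39) lies left of it, and all 10 lie inside the outer band.

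TAP1 and TAP2 are the paired chains of the peptide transporter. Tap1 (ENSMUSG00000037321, chromosome 17, 34187553 to 34197225, plus strand) had 478 counts in mrWNT2 and 417 in control, or 37.6 and 31.2 CPM, a 1.21-fold ratio (1.05 to 1.38), which fell short of 1.2-fold under the scaling of the FPKM table. Tap2 (ENSMUSG00000024339, chromosome 17, 34203527 to 34216321, plus strand) had 694 counts in mrWNT2 and 717 in control, or 54.6 and 53.6 CPM, a ratio of 1.02 (0.916 to 1.13). The interval of Tap1 lay above 1 and that of Tap2 included it. The difference between them was within counting error: Tap1 stood at 0.476 of Tap2 in mrWNT2 and 0.402 in control by FPKM, a ratio of 1.18 whose interval (0.998 to 1.41) included 1.

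Tapbp (ENSMUSG00000024308, chromosome 17, 33915899 to 33929288, plus strand) encodes tapasin, which holds empty class I molecules at the transporter. It had 2049 counts in mrWNT2 and 1877 in control, or 161 and 140 CPM, a 1.15-fold ratio (1.08 to 1.22). The ratio was small, but its interval lay above 1. Tapbpl, which encodes the tapasin-related peptide editor TAPBPR, had 272 and 278 counts, a ratio of 1.03 (0.867 to 1.22), and Tapbp over Tapbpl did not differ beyond counting error (ratio 1.12, 0.930 to 1.34). The Tapbp gene span overlaps that of Zbtb22 on the same strand over 3421 bases, so reads there may be split or lost between them.

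The proteasome subunits split as well. Psmb8 (ENSMUSG00000024338, chromosome 17, 34197721 to 34201454, plus strand) encodes the immunoproteasome subunit that takes the place of the Psmb5 product. It had 519 counts in mrWNT2 and 371 in control, or 40.8 and 27.7 CPM. Its 1.47-fold ratio (1.29 to 1.69) was the highest of the 10 genes and above that of 91.8% of the genes compared.

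Psmb9 (ENSMUSG00000096727, chromosome 17, 34181988 to 34187764, minus strand), whose product takes the place of that of Psmb6, had 289 counts in mrWNT2 and 301 in control, or 22.7 and 22.5 CPM. Its ratio was 1.01 (0.856 to 1.19). Psmb10 (ENSMUSG00000031897, chromosome 8, 105935735 to 105938444, minus strand), whose product takes the place of that of Psmb7, had 223 counts in mrWNT2 and 232 in control, or 17.5 and 17.4 CPM, a ratio of 1.01 (0.837 to 1.22). Neither differed between the libraries beyond counting error, at a depth that leaves intervals of this width.

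Set against the subunits they replace, the immunoproteasome genes went in different directions. By FPKM, Psmb8 stood at 0.218 of Psmb5 in mrWNT2 and 0.157 in control, a ratio of 1.39 (1.17 to 1.65). Psmb9 stood at 0.144 of Psmb6 in mrWNT2 and 0.186 in control, a ratio of 0.773 (0.639 to 0.934), since Psmb6 itself was 1.31-fold higher (1.19 to 1.43). Psmb10 stood at 0.911 of Psmb7 in mrWNT2 and 0.883 in control, a ratio of 1.03 (0.822 to 1.30).

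Summed by set, both kinds of catalytic subunit genes were higher in mrWNT2. The 3 immunoproteasome genes had 81.07 CPM in mrWNT2 and 67.6 CPM in control, a ratio of 1.199 (1.096 to 1.313). The 3 constitutive genes they replace had 181.0 and 159.4 CPM, a ratio of 1.135 (1.07 to 1.205). The share held by each set therefore differed little. The immunoproteasome genes made up 20.4% of the FPKM of the 6 catalytic subunit genes in mrWNT2 and 19.5% in control. By FPKM, constitutive transcripts thus outweighed those of the immunoproteasome in both libraries, and the size of the share depends on the gene lengths used.

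**Figure D3:**
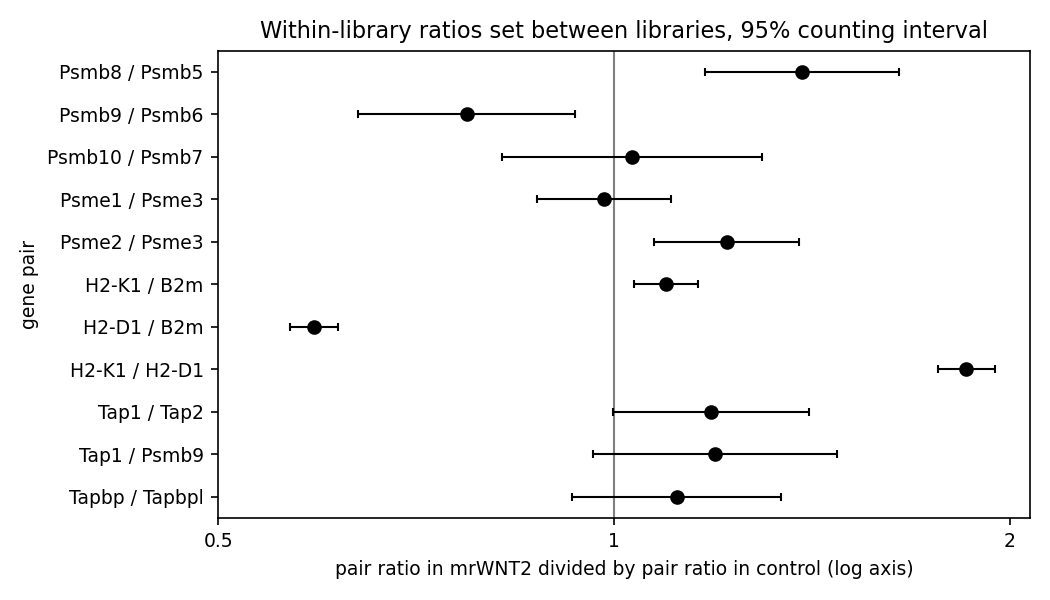
For each gene pair, the ratio of the first gene to the second in mrWNT2 divided by the same ratio in control, on a log axis, with exact conditional 95% intervals from the 4 counts. H2-K1 over H2-D1 (1.85) and Psmb8 over Psmb5 (1.39) lie furthest right of 1, and H2-D1 over B2m (0.591) and Psmb9 over Psmb6 (0.773) furthest left of it.

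Nlrc5 (ENSMUSG00000074151, chromosome 8, 94434356 to 94527272, plus strand) encodes a transactivator of class I genes and was the least abundant gene of the group per length. It had 174 counts in mrWNT2 and 186 in control, or 13.7 and 13.9 CPM, a ratio of 0.984 (0.795 to 1.22). Its level did not differ beyond counting error. Of the class I pathway genes it is known to act on, H2-K1, B2m and Tap1 were higher, H2-D1 was lower, and Psmb9 had a ratio of 1.01.

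By FPKM, the order of the genes was nearly the same in both libraries, though the order itself depends on the gene lengths used. B2m came first, with 671 FPKM in mrWNT2 and 533 in control, followed by H2-D1 with 365 and 490, H2-K1 with 141 and 102 and Tapbp with 48.3 and 43.1. Psmb8 stood higher in the order in mrWNT2 (14.7 FPKM, rank 5) than in control (10.3 FPKM, rank 7). In mrWNT2 its interval overlapped that of Tap2 (14.3 FPKM), and in control that of Psmb10 (10.3 FPKM), so these neighbours did not differ beyond counting error. Tap1 and Psmb9 lay between 5.76 and 6.78 FPKM in both libraries.

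Of the 10 genes, 7 lie on chromosome 17, 6 of them from H2-K1 to H2-D1, a span of 1271 kb. Psmb9, Tap1, Psmb8 and Tap2 sit side by side within the class II region, and their ratios differed along the row, at 1.01, 1.21, 1.47 and 1.02. Tap1 and Psmb9, which share the stretch between their starts printed above, had a Tap1 over Psmb9 ratio of 1.11 in mrWNT2 and 0.926 in control by FPKM, which did not differ beyond counting error (ratio 1.19, 0.964 to 1.48). In the annotation of the counts, which differs here from the RefSeq starts, their gene spans overlap by 212 bases on opposite strands. The strand setting of the counting is not stated in the sources used. Of the 65 genes measured from H2-K1 to H2-D1, 10 were higher by 1.5-fold or more and 3 lower, against 7.62% and 7.02% of all genes compared, and the median log2 ratio of the 65 was 0.07. Most of the higher genes averaged under 10 CPM, among them H2-Oa, H2-Ob and Cfb, the last with 78 counts in mrWNT2 and 0 in control. Higher genes above that level were Tnf, at 94.9 CPM in mrWNT2 and 49.2 CPM in control, and a gene without a symbol, at 257 and 138 CPM.

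**Figure D4:**
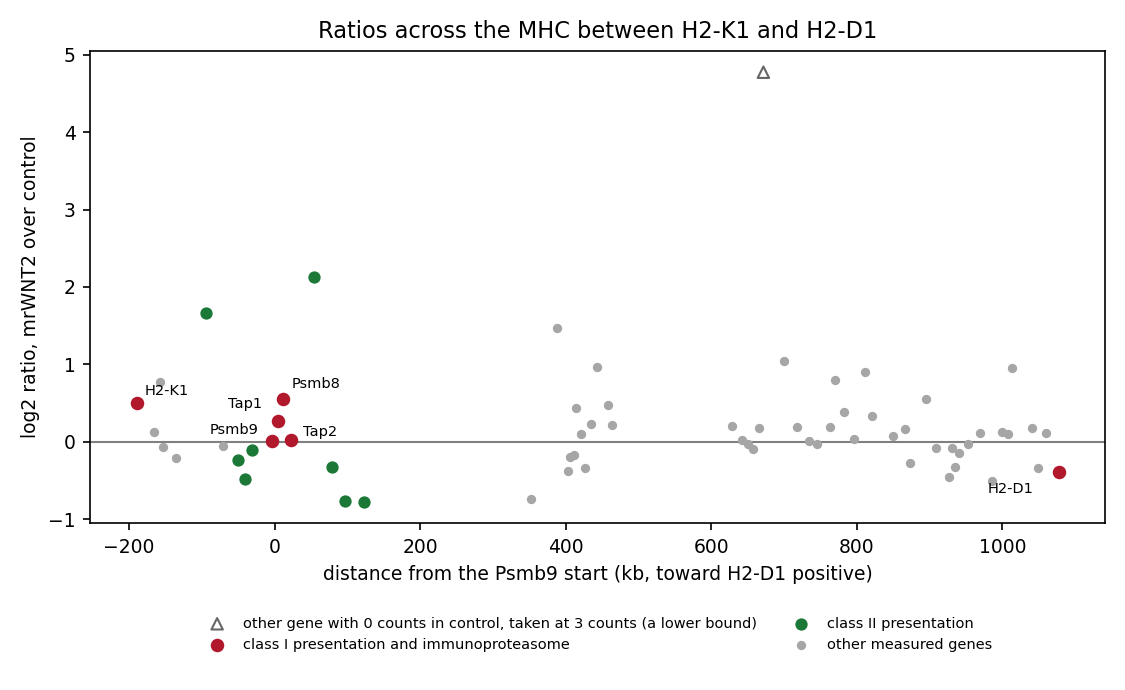
Log2 ratio of mrWNT2 over control (1 library each) against distance in kb from the start of Psmb9, for the 65 measured genes from H2-K1 to H2-D1. Class I presentation and immunoproteasome genes lie between -0.39 (H2-D1, far right) and 0.56 (Psmb8), among class II genes that reach lower and higher, the 2 highest of them (H2-Oa and H2-Ob) at under 10 CPM; the triangle marks a gene with 0 control counts, drawn at a lower bound.

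Most genes of class II presentation were lower in the mrWNT2 library. Of the 10 listed, 6 were lower by 1.2-fold or more and 2 higher, against 18.4% and 21.0% of all genes compared. Their median log2 ratio was -0.41. Of the 6 that averaged 10 CPM or more, 4 were lower and none higher, against 12.7% and 15.6% of all genes at that level. Log2 ratios of these 6 ran from -0.96 to -0.11, with a median of -0.54. The chain genes H2-Eb1 (0.585, 0.509 to 0.671), H2-Aa (0.591, 0.523 to 0.667) and H2-Ab1 (0.796, 0.700 to 0.904) were lower, as was Cd74, the invariant chain gene (0.513, 0.467 to 0.563). Ciita, the class II transactivator gene and a relative of Nlrc5, had 18 counts in mrWNT2 and 46 in control, a ratio of 0.412 (0.225 to 0.724). H2-DMb1, which encodes a chain of the class II peptide editor, had a ratio of 0.926 with an interval of 0.770 to 1.11. The 2 higher genes, named after their values were seen, encode the chains of the inhibitor of that editor and averaged under 10 CPM. H2-Oa had 118 counts in mrWNT2 and 39 in control (3.18-fold, 2.20 to 4.70), and H2-Ob had 25 and 6 (4.38-fold, 1.75 to 13.1).

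Other class I and class I-like heavy chain genes, which present to other receptors or carry other cargo, went both ways. Of 18 listed, 14 passed 1 CPM, and their median log2 ratio was 0.16. By 1.5-fold or more, 5 were higher and 3 lower, against 7.62% and 7.02% of all genes compared. The median turned to -0.29 over the 6 that averaged 10 CPM or more. Of these, 1 was higher and 3 were lower by 1.2-fold or more, against 15.6% and 12.7% of all genes at that level. Mr1, which presents microbial vitamin metabolites to innate-like T cells, was 1.53-fold higher (1.2 to 1.95). Fcgrt, the heavy chain of the neonatal Fc receptor, was lower at a ratio of 0.597 (0.537 to 0.663), as were the iron-regulating Hfe (0.687, 0.565 to 0.833) and H2-T24 (0.708, 0.587 to 0.853). H2-T23, which encodes the ligand of the NK cell receptor CD94/NKG2A, had 1418 counts in mrWNT2 and 1576 in control, a ratio of 0.946 whose interval (0.880 to 1.02) included 1; it was named after its values were seen.

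Genes that trim peptides or fold and load class I molecules had a median log2 ratio of 0.22. Of 11 found (Nrdc was not), all at 10 CPM or more, 3 were higher by 1.2-fold or more (15.6% of all genes at that level) and none was lower by as much. The interval lay above 1 for 8 of them (25.0% of all genes at that level), below it for 1 and included it for Erap1 and Tapbpl. Calr and Canx, which encode the lectin chaperones calreticulin and calnexin, were 1.33-fold (1.29 to 1.36) and 1.19-fold (1.15 to 1.24) higher. The chaperone gene Hspa5 was 1.42-fold higher (1.38 to 1.46) and Bcap31, a transport factor of the endoplasmic reticulum, 1.33-fold (1.24 to 1.43). Lnpep, an endosomal aminopeptidase gene, had the lowest ratio of the list (0.959, 0.921 to 0.999). Most of these genes serve many proteins besides class I.

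The rest of the proteasome stayed close to a ratio of 1. Of 14 constitutive core subunit genes, all at 10 CPM or more, the median log2 ratio was 0.09. By 1.2-fold or more, 1 was higher (Psmb6) and none was lower, against 15.6% and 12.7% of all genes at that level. Psmb2 had a ratio of 1.19 (1.09 to 1.30), Psmb5 1.06 (0.957 to 1.17) and Psmb7, the lowest, 0.980 (0.865 to 1.11). Among the 7 activator and assembly genes, Psme2, a chain of the interferon-induced PA28 activator, was 1.31-fold higher (1.18 to 1.46), while its partner Psme1 had a ratio of 1.06 (0.961 to 1.17). Psme4, which encodes the activator PA200, had a ratio of 0.914 (0.859 to 0.973). The assembly chaperone gene Psmg1 had 1.17 (0.912 to 1.49) and Pomp, the assembly factor gene, 1.08 (0.974 to 1.19). Against Psme3, the nuclear activator gene, Psme2 was 1.22-fold higher (1.07 to 1.38) and Psme1 was not different beyond counting error (0.983, 0.874 to 1.11).

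The transcription factors that act on class I promoters mostly stayed near a ratio of 1. Nfkb1, which encodes an NF-kB subunit, was 1.45-fold higher (1.37 to 1.53). Rela, which encodes its partner, had a ratio of 1.04 (0.958 to 1.13). Rfx5, a subunit of the RFX complex that recruits NLRC5 and CIITA, had 146 counts in mrWNT2 and 124 in control, a ratio of 1.24 whose interval (0.968 to 1.59) included 1. Irf1, an interferon-induced activator of class I genes, was lower at 0.865 (0.770 to 0.971), and the NF-Y subunit gene Nfyb had a ratio of 0.917 (0.793 to 1.06). The 12 factor genes all averaged 10 CPM or more and had a median log2 ratio of -0.03. By 1.2-fold or more, 2 were higher and none was lower, against 15.6% and 12.7% of all genes at that level.

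Interferon receptors and transducers had a median log2 ratio of -0.05 over 11 genes, all at 10 CPM or more. By 1.2-fold or more, 3 were higher and 1 was lower, against 15.6% and 12.7% of all genes at that level. Ifngr1 and Ifngr2, which encode the chains of the interferon-gamma receptor, had ratios of 0.808 (0.765 to 0.854) and 1.24 (1.14 to 1.34), on opposite sides of 1. Ifnar1, a chain of the type I receptor, was 1.26-fold higher (1.16 to 1.37), and the kinase gene Tyk2 1.2-fold (1.12 to 1.30). No Ifng count was seen in either library, a limit of 0.236 CPM in mrWNT2 and 0.224 CPM in control (3 counts), and Ifnb1 had 1 and 0 counts.

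Other interferon-induced genes spread more widely. Of 20 listed, 15 passed 1 CPM, 9 higher and 1 lower by 1.2-fold or more, against 21.0% and 18.4% of all genes compared. The median log2 ratio of the 15 was 0.36. For the 6 that averaged 10 CPM or more it was 0.27. Bst2, which encodes the antiviral protein tetherin, was 1.91-fold higher (1.54 to 2.38), and the GTPase gene Irgm1 1.35-fold (1.09 to 1.68). Irf7 and the GTPase gene Igtp had ratios of 1.23 (0.971 to 1.55) and 0.846 (0.668 to 1.07), both with intervals that included 1. The difference in counts between these lists was not tested.

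**Figure D5:**
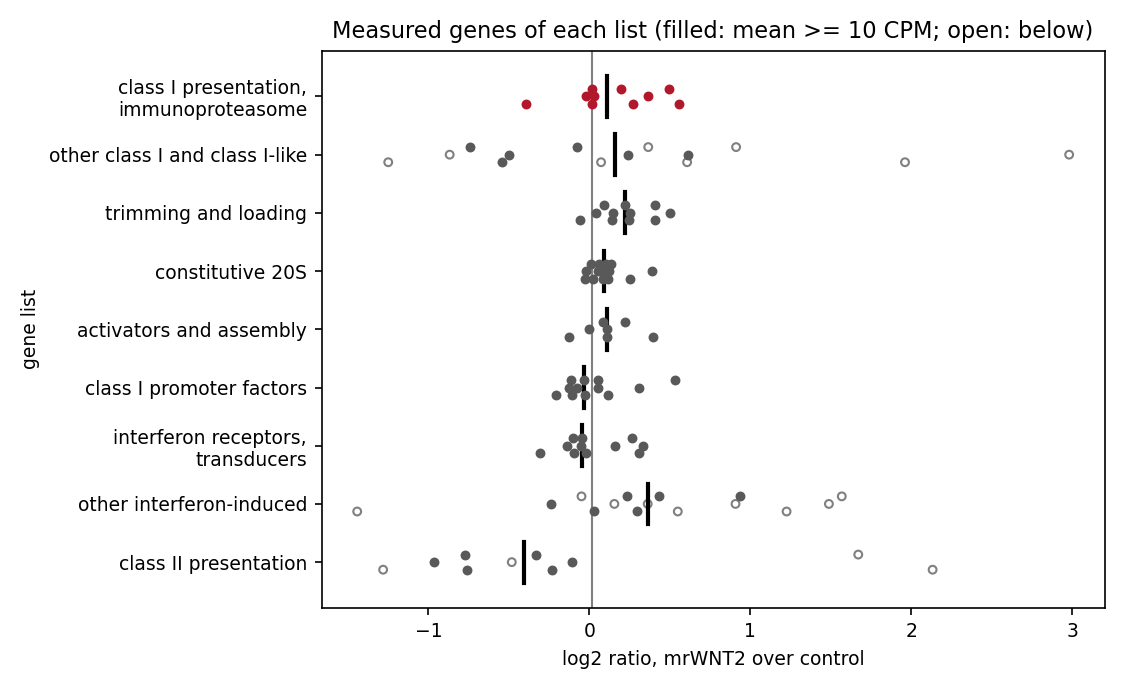
Log2 ratio of mrWNT2 over control (1 library each) for the measured genes of each list, filled where the mean is at least 10 CPM and open where it is lower; thick bars are list medians and the thin line is the median of all genes, 0.02. The class I presentation and immunoproteasome genes (top, median 0.11) spread from -0.39 to 0.56, against -0.03 to 0.39 for the 14 constitutive core subunits. The class II genes ran from -1.28 to 2.13, and from -0.96 to -0.11 where the mean was at least 10 CPM.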

How the data were processed

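RNA-seq was done on 2 libraries, 1 mrWNT2 and 1 control. Per the labels' protocols, TRIzol served for RNA extraction and the NEBNext Ultra kit for the libraries. Tools listed in the submitters' processing notes are HISAT2 2.0.5, featureCounts 1.5.0-p3, DESeq2 1.20.0, CASAVA 1.8 and fastp, with GRCm38 (mm10) as the build. The authors deposited raw counts per gene and FPKM per gene. Over 10078 genes with more than 50 counts in both libraries, log2 ratios from the deposited FPKM and from counts scaled by DESeq2 size factors differed by at most 1.2e-08.

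Counts were scaled by TMM in edgeR 4.0.16 (DESeq2 1.42.0 gave an alternative). Log2 ratios of counts above 0 used no pseudocount, and intervals are 95% Clopper-Pearson intervals from the 2 counts, or exact conditional intervals for pairs. They were tested only on counts simulated with counting error alone, the error they assume, so that test says nothing of variation between cultures or library preparations. A count of 0 allows up to 3 counts, and it was set to 3 in a log2 ratio where the other library had more than 3. Reads carry no molecular identifiers. With 1 library per group no p-value is given. Start and end of 7 of the 10 genes equalled those in the reference annotation (GENCODE, GRCm38). Promoters are from RefSeq (GRCm38.p6); the H2-K1 and H2-D1 stretches were aligned with Biopython 1.88. The motifs were chosen after the promoters and ratios had been seen. The NF-kB and interferon-stimulated motifs were first searched in longer forms and then in the shorter forms with N, which match more promoters and set the capitals; the report gives the share of promoters for both.

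The members and gene lists were chosen with earlier results of these data known. Named genes are the 10 members; from each other list up to 4 with the largest ratio in size and the extremes, among genes that averaged 10 CPM or more; the paired genes; and Irf1, Rfx5, Ciita, Ifng and Ifnb1. A further gene of this rule and a further motif are not reported here. Other listed genes named in the text, such as Rela, were chosen after their values were seen. Alternatives were other scalings, other expression minimums and the FPKM table.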

Additional observations from a re-analysis of the deposited data

How the results depend on the processing

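Of 82 values recomputed under alternatives, 75 stayed inside their counting interval or within 1.5 times the count, and no ratio with an interval clear of 1 changed sign. This tally is no measure of robustness, since part of it could not change. Gene lengths cancel in the pair ratios from FPKM, and FPKM ratios repeat those of DESeq2 scaling. All 10 genes passed every expression minimum, and each scaling shifts all genes by the same amount. Tap2, Psmb9 and Psmb10, whose intervals include a log2 ratio of 0, turned from 0.03, 0.01 and 0.02 to -0.01, -0.02 and -0.02 under DESeq2 or FPKM scaling, and to -0.03, -0.04 and -0.04 under upper quartile scaling. The balance of all genes past 1.5-fold also turned, with 892 higher and 984 lower under DESeq2 size factors and 853 and 1038 under upper quartile scaling, against 980 and 902 as reported. Under upper quartile scaling the log2 ratio of H2-D1 was -0.44 and that of B2m 0.31, outside their intervals and in the same direction; this scaling shifted the median of all genes by -0.05. With a mean of at least 10 CPM, 352 genes were at least 1.5-fold higher and 252 lower, and with at least 1 count in either library 2532 and 2675, against 980 and 902 as reported, since the minimum sets how many genes are compared. At 1.5-fold, 0 of the 10 genes were higher. At 1.2-fold, 3 were higher under DESeq2, upper quartile or FPKM scaling, in place of 4. The median over the 10 genes ranged from 0.06 to 0.13. No paired analysis was possible because each group had 1 library. Depth limits the low genes most: Nlrc5, Psmb9 and Psmb10 had the fewest counts.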

Other observations

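Several class I and interferon-induced genes with a mean under 10 CPM, chosen here after their values were seen, had ratios further from 1 than any of the 10 genes above. H2-M2, a class I-like gene, had 30 counts in mrWNT2 and 4 in control, a 7.89-fold ratio (2.78 to 30.8). H2-Q6 had 74 and 20 counts (3.89-fold, 2.35 to 6.73) and H2-Q4 had 152 and 85 (1.88-fold, 1.43 to 2.48), while H2-Q10 had 24 in mrWNT2 and 60 in control (0.421, 0.251 to 0.686). The H2-Q genes have near-identical relatives, and their counts are uncertain. Cd1d1, which presents lipids to NKT cells, had 37 counts in mrWNT2 and 71 in control (0.548, 0.358 to 0.827).

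Guanylate-binding protein genes, known targets of interferon-gamma, were higher from low counts. Gbp5 had 62 counts in mrWNT2 and 22 in control (2.96-fold, 1.80 to 5.06), Gbp3 had 40 and 18 (2.34-fold, 1.31 to 4.33) and Gbp2 had 132 and 74 (1.88-fold, 1.40 to 2.53). In contrast, Gbp7 had 361 and 372 (1.02, 0.880 to 1.18), and Mx1, a target of type I interferon, had 7 in mrWNT2 and 20 in control (0.368, 0.132 to 0.906). Cxcl10, which encodes a T cell chemoattractant, had 48 and 18 counts (2.80-fold, 1.60 to 5.12).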
